A study of Mus musculus with 6 samples.

Results

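Milk secretion in mouse mammary epithelium was followed through 10 genes, chosen by symbol from the table of counts per gene. They were the milk protein genes Ltf, Csn2, Csn3, Wap and Lalba, the milk fat globule membrane genes Mfge8, Xdh and Btn1a1, and the transcription factor genes Stat5a and Stat5b. Of these 10, 8 had a row among the 25655 genes of the table, and the expression of Wap and Lalba was not analysed here. A filter on low counts kept 7 of the 8 for testing and removed Csn2, which held 1 count in all.

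The cells were Comma-Dβ, an established line of mouse mammary epithelium, at passage 29. One arm (siID4) received the siGENOME Mouse Id4 SMARTpool and the other (NT) the ON-TARGETplus Non-targeting Control Pool, each at 20 nM, and RNA was taken after 48 hr from 3 biological replicates per arm. The arms therefore also differed in siRNA product line, which cannot be told apart from the target. Both arms grew in medium with serum, insulin and EGF, and the labels' growth protocol lists no prolactin or glucocorticoid.

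In the lactating gland, prolactin binds its receptor, the receptor-bound kinase JAK2 phosphorylates STAT5A and STAT5B, and the paired STAT5 proteins enter the nucleus and switch on milk protein genes together with the glucocorticoid receptor and ELF5. Milk fat leaves the cell as droplets wrapped in plasma membrane, for which butyrophilin (Btn1a1) and xanthine oxidoreductase (Xdh) act as partners, and milk fat globule EGF factor 8 (Mfge8) coats the released globule. ID proteins such as ID4 pair with helix-loop-helix factors and keep them from E-boxes, the short DNA element that those factors bind.

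Library totals were between 19216671 and 23095600 counts. Id4 itself was at 135, 114 and 118 CPM (counts scaled to a common library total, with TMM factors) in NT replicates 1 to 3 and at 59.4, 62.2 and 48.2 CPM in siID4, a log2 fold change of −1.11 (SE 0.10, edgeR adjusted p = 8.65e-04). Epithelial markers were present, with Krt14 at 936 ± 74.2 and Epcam at 222 ± 9.13 CPM in NT (SD, n = 3). Of 13 leukocyte markers with a row, 2 were abundant enough to test and 0 were called, with a summed level of 3.21 to 4.0 CPM in NT and 3.85 to 4.43 CPM in siID4 libraries, and the neutrophil gene Elane was at 0 in all 6. The 8 adipocyte markers summed to 13.5 to 15.1 and 13.8 to 15.7 CPM, with Plin1 at 0 throughout, and the 9 endothelial markers to 0.888 to 1.28 and 1.93 to 2.63 CPM, with Tie1 at 0 throughout. Of 9 fibroblast markers tested, 3 were called higher and 2 lower, a share of 55.6%, where 9.55% of all genes tested were called. The 10 fibroblast markers with a row summed to 3218 to 3786 CPM in NT and 4481 to 5153 CPM in siID4. The part of these markers in the results below was not tested.

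To place the genes against the elements named above, 300 bases of promoter (250 before and 50 after a start site, RefSeq on GRCm38.p6) were searched for the STAT5 core TTCNNNGAA and for the E-box CANNTG, each of which reads the same way on both strands. Promoters were found for 7 of the 10 genes, and Csn3, Xdh and Btn1a1, which had none, were not searched. Stat5a and Stat5b had 2 start sites each. Counted by start site, TTCNNNGAA stood in 1 of these 9 promoters, that of Csn2, and in 8.3% of all 32851. CANNTG stood in 8 of the 9 and in 72.3% of all. The stretches below are shown because Csn2 carries the STAT5 core, Ltf was called between the arms, Mfge8 was the most abundant, and Stat5a and Stat5b encode the factor that binds the core. Capitals mark the motif, and 10 flanking bases stand on each side.
Csn2 STAT5 core, chr5:87699500-87699528, minus strand, 93 bases before the start site: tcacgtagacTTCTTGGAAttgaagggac
Ltf E-box, chr9:111019169-111019194, plus strand, 113 bases before: agaactagcaCACCTGgttgagggca
Mfge8 E-box, chr7:79149277-79149302, minus strand, 232 bases before: attatccagcCACTTGttaaaattcc
Stat5a E-box (1 of 2 at the first start site), chr11:100859584-100859609, plus strand, 62 bases before: ggaccagcttCAGGTGtgacccttct
Stat5b E-box (1 of 2 at the second start site, with 0 at the first), chr11:100822594-100822619, minus strand, 39 bases before: ctgtctgaagCAGCTGaccttttaga
None of these matches is a measured binding site, and the libraries hold no binding data.

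Compared per length of transcript, the genes covered a wide range of mRNA levels. In NT, Mfge8 stood at 108 ± 4.80 CPM per kb (SD, n = 3), the highest of these genes. Csn3 followed at 47.4 ± 14.6, then Ltf at 23.3 ± 5.02, Xdh at 22.8 ± 3.67, Stat5b at 10.8 ± 0.763, Stat5a at 8.88 ± 1.84 and Btn1a1 at 1.81 ± 0.156 CPM per kb. The median of the 13941 genes tested was at 10.8 CPM per kb. Ltf and Xdh overlapped between NT libraries, as did Stat5b and Stat5a, and each other neighbouring pair was apart in all 3. In siID4 Ltf and Xdh no longer overlapped, with Ltf at 10.7 to 15.7 and Xdh at 17.1 to 21.1 CPM per kb. The length deposited for Ltf was 1461 bases, where its longest transcript in GENCODE M21 has 2743. The per-kb level of Ltf, its rank beside Xdh and their overlap in NT therefore depend on that length.

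Between the arms, Ltf fell and Btn1a1 rose, and Csn3, Mfge8, Xdh, Stat5a and Stat5b did not pass the test. That is 2 of 7 tested genes called at an adjusted p under 0.05, where 9.55% of all genes tested were called (4.62% as higher and 4.93% as lower). The totals were 644 higher and 687 lower, or 829 and 564 with library totals in place of TMM factors. The median log2 fold change of the 7 genes was 0.02, and that of all genes tested was 0.0. The arms did not overlap for 3 of the 7 genes (Ltf, Btn1a1 and Stat5b), and for 30.9% of all genes tested. With the replicate number as a block, which pairs same-numbered libraries, 5 of the 7 were called, 2 higher and 3 lower, where 36.1% of all genes were called. In bulk RNA, fewer cells that make a transcript and less transcript per cell cannot be told apart.

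**Figure D1:**
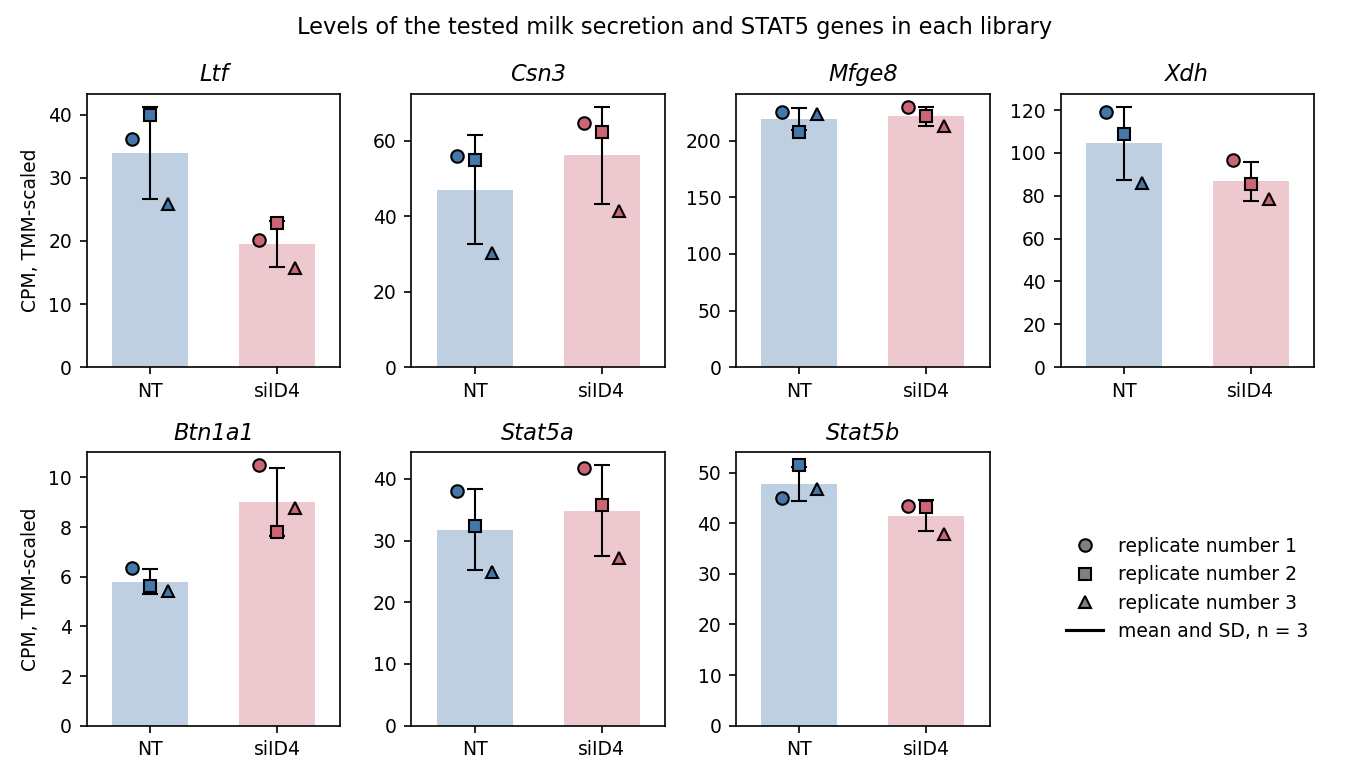
Level of each tested gene in CPM (vertical axes, each from 0) in the 3 NT and 3 siID4 libraries, with bars for means, lines for SD and a symbol for each replicate number. Ltf lies lower and Btn1a1 higher in all 3 siID4 libraries, while Csn3, Stat5a and Mfge8 overlap between the arms.

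Ltf encodes lactoferrin, an iron-binding defence protein of milk. The gene (ENSMUSG00000032496) lies on the plus strand of chromosome 9 from 111019271 to 111042767 on GRCm38. Its level was 36.2, 39.9 and 25.8 CPM in NT replicates 1 to 3 and 20.1, 22.9 and 15.7 CPM in siID4. Every siID4 library lay below every NT library, and the library numbered 3 was lowest in both arms. The mean went from 34.0 ± 7.34 to 19.6 ± 3.66 CPM, or 0.576 of the NT level (exact two-sided permutation p = 0.1, the smallest that 3 against 3 allows). The fitted log2 fold change was −0.79 (SE 0.19, 95% interval −1.22 to −0.37, edgeR adjusted p = 0.035). Within replicate numbers 1, 2 and 3 the log2 ratio of siID4 to NT was −0.85, −0.80 and −0.72, a narrower spread than that among the libraries of an arm. The edgeR call was lost when genes of low counts were also tested (adjusted p = 0.132) and when any of 5 libraries was left out, namely NT replicate 1 (0.0939), NT replicate 2 (0.108), siID4 replicate 1 (0.10), siID4 replicate 2 (0.0606) and siID4 replicate 3 (0.0704). Without NT replicate 3, whose Ltf level was the lowest of its arm, it passed (0.00673).

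Csn3 encodes κ-casein, the casein that coats and stabilises the casein micelle. It lies on chromosome 5 from 87925579 to 87932665 (ENSMUSG00000001622). Its level was 56.0, 54.9 and 30.4 CPM in NT and 64.9, 62.4 and 41.4 CPM in siID4. The arms overlapped, and the libraries numbered 3 were far below the other two of their arm in both. The log2 fold change was 0.26 (SE 0.27, 95% interval −0.38 to 0.89, edgeR adjusted p = 0.606). Within numbers the ratio was 0.21, 0.18 and 0.44 on the log2 scale, above 0 in 3 of 3. With the replicate block Csn3 passed (0.27, SE 0.05, adjusted p = 5.96e-05), so its call rests on the pairing.

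The other caseins were at or near 0. Csn2, which encodes β-casein, a major casein of milk, lies 225948 bases from Csn3 in the same cluster. It held 1 count in NT replicate 1 and 0 in the other 5 libraries, where a count of 0 allows up to 3 counts, or 0.13 to 0.157 CPM by library (counting error only). Csn1s1, Csn1s2a and Csn1s2b, the remaining caseins of the cluster, held 2, 1 and 4 counts over all 6 libraries. The 4 genes together held 4 counts in NT and 4 in siID4, against 2859 and 3825 counts for Csn3. A difference between the arms was not detectable at this depth for any of the 4. Csn3, by contrast, stood above 87.4% of the genes tested per kb.

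Btn1a1 encodes butyrophilin, a membrane protein of the milk fat globule. The gene (ENSMUSG00000000706) lies on the minus strand of chromosome 13 from 23456992 to 23465901. Its level was 6.37, 5.64 and 5.41 CPM in NT and 10.5, 7.79 and 8.77 CPM in siID4. All 3 siID4 libraries were above all 3 NT libraries, and siID4 replicate 1 was the highest. The mean went from 5.81 ± 0.503 to 9.02 ± 1.37 CPM, a ratio of 1.55 (exact permutation p = 0.1, the smallest possible). The log2 fold change was 0.64 (SE 0.14, 95% interval 0.32 to 0.95, edgeR adjusted p = 0.023), and within numbers it was 0.72, 0.47 and 0.70. These levels rest on 108 to 127 counts per NT library and 172 to 243 per siID4 library, the fewest of the tested genes here. The call was lost without NT replicate 2 (adjusted p = 0.0929), NT replicate 3 (0.0676) or siID4 replicate 1 (0.0623), and held without each of the other libraries.

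Xdh encodes xanthine oxidoreductase, an enzyme of purine breakdown that also binds butyrophilin at the apical membrane. It lies on chromosome 17 from 73883895 to 73950196 (ENSMUSG00000024066). Its level was 119, 109 and 85.8 CPM in NT and 96.6, 85.4 and 78.5 CPM in siID4. NT replicate 3 lay within the range of siID4, and the library numbered 3 was the lowest of each arm. The log2 fold change was −0.26 (SE 0.12, 95% interval −0.55 to 0.02, edgeR adjusted p = 0.223). Xdh was lower in siID4 in 3 of 3 numbers, by −0.30, −0.35 and −0.13 on the log2 scale. It passed with the block (adjusted p = 2.98e-06) and without NT replicate 3 (−0.39, adjusted p = 0.0307).

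The ratio of butyrophilin to xanthine oxidoreductase mRNA was also compared. With 3 libraries per arm the permutation test used for it cannot fall under 0.05, so it cannot decide whether the ratio differed. Btn1a1 reached 0.0538, 0.0518 and 0.0631 of the CPM of Xdh in NT and 0.109, 0.0912 and 0.112 in siID4. The arms did not overlap, and the mean log2 ratio was 0.88 higher in siID4 (exact permutation p = 0.1, the smallest possible, 0.2 after Benjamini-Hochberg adjustment over 2 ratios). Within numbers that difference was 1.01, 0.81 and 0.82.

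Mfge8 encodes lactadherin, a secreted protein that binds phosphatidylserine and integrins and helps in the clearance of dying cells. It lies on chromosome 7 from 79133768 to 79149060 (ENSMUSG00000030605). It was the most abundant of the tested genes, with 225, 208 and 224 CPM in NT and 230, 222 and 213 CPM in siID4. The arms overlapped, with siID4 replicate 1 the highest and NT replicate 2 the lowest of the 6 libraries, and the means were 219 ± 9.76 and 221 ± 8.44 CPM. The log2 fold change was 0.02 (SE 0.05, 95% interval −0.10 to 0.13, edgeR adjusted p = 0.889), the narrowest interval among the 7 genes. Its sign within numbers differed, with 0.03, 0.09 and −0.08, and it did not pass with the block (adjusted p = 0.747).

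**Figure D2:**
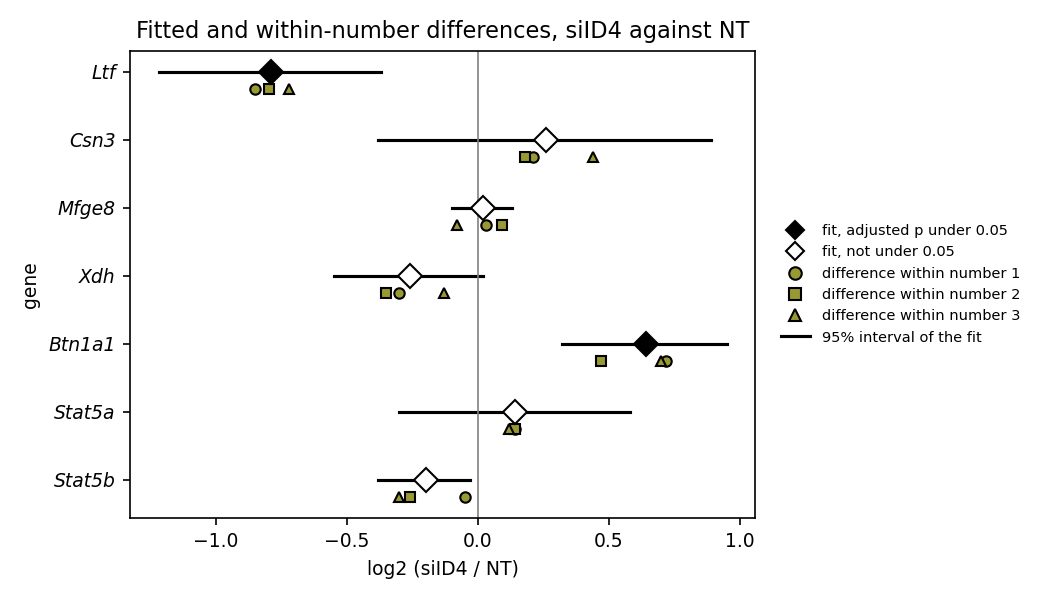
Log2 ratio of siID4 to NT (horizontal axis) for each tested gene (vertical axis), with diamonds for the edgeR fit, lines for its 95% interval and small symbols for the ratio within each replicate number. The interval of Csn3 runs from −0.38 to 0.89 and that of Mfge8 from −0.10 to 0.13, and the within-number ratios of Ltf lie between −0.85 and −0.72.

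Stat5a and Stat5b encode the closely related STAT5 proteins and lie 8626 bases apart on chromosome 11, Stat5b on the minus strand (100780731 to 100850724, ENSMUSG00000020919) and Stat5a on the plus strand (100859351 to 100885169, ENSMUSG00000004043). STAT5A is the main form in the lactating gland. Stat5a was at 38.0, 32.4 and 24.9 CPM in NT and 41.8, 35.7 and 27.1 CPM in siID4. Its arms overlapped, with a log2 fold change of 0.14 (SE 0.19, 95% interval −0.30 to 0.58, edgeR adjusted p = 0.708). Within numbers the ratio was nearly constant at 0.14, 0.14 and 0.12, and with the block the adjusted p was 0.0507.

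Stat5b was at 45.0, 51.5 and 46.7 CPM in NT and 43.4, 43.2 and 37.9 CPM in siID4. Every siID4 library was below every NT library, by a narrow margin between 45.0 and 43.4. The log2 fold change was −0.20 (SE 0.08, 95% interval −0.38 to −0.03, unadjusted p = 0.0288, edgeR adjusted p = 0.141). Stat5b passed with the block (adjusted p = 0.00263), and its within-number ratios were −0.05, −0.26 and −0.30.

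The coding sequences of the 2 genes are near-identical in places, and the deposited expected counts show reads divided between them. Neither gene had a whole number in any library, and their sum was whole in 6 of 6 libraries (tolerance 0.005). The split between Stat5a and Stat5b thus carries an estimate, and the sum does not. Both genes together were at 83.0, 84.0 and 71.6 CPM in NT and 85.2, 78.9 and 65.0 CPM in siID4. The arms overlapped, with a log2 fold change of −0.06 (SE 0.10, 95% interval −0.29 to 0.18, edgeR adjusted p = 0.786, and 0.196 with the block). The ratio of Stat5b to Stat5a was 1.18, 1.59 and 1.88 in NT and 1.04, 1.21 and 1.40 in siID4, lower in siID4 in each number but overlapping between arms (mean difference −0.34 on the log2 scale, exact permutation p = 0.3, 0.3 after adjustment over 2 ratios).

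**Figure D3:**
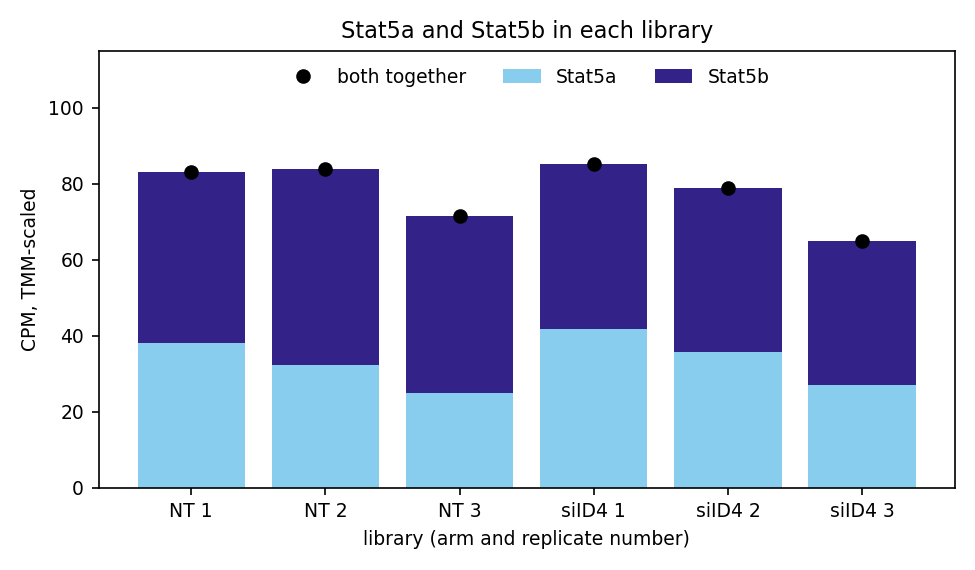
Stacked bars of Stat5a and Stat5b in CPM (vertical axis from 0) for each library (horizontal axis), with black points for both genes together. The summed level runs from 71.6 to 84.0 CPM in NT and from 65.0 to 85.2 CPM in siID4, and the libraries numbered 3 are lowest in both arms.

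Ltf, Csn3, Xdh and Stat5a shared a low level in the libraries numbered 3. For these 4 of the 7 tested genes the library numbered 3 was the lowest of its arm in both arms, as it was for 21.5% of all genes tested. What same-numbered libraries share is not stated in the labels. For Csn3, Xdh and Stat5a the gap between number 3 and number 1 of each arm was larger than the gap between the means of the arms.

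Without the block, genes upstream of STAT5 were called at a share near that of all genes. Of 16 tested genes of prolactin and growth hormone signalling, 0 rose and 1 fell. That is 6.25%, against 9.55% of all genes tested. When paired by the block, 5 were called higher and 5 lower, where 36.1% of all genes were called. Igf1r, named after its values were seen, was called higher with library totals (adjusted p = 0.0374) and with the 5 CPM minimum (0.0498). The median over the list was −0.02. Prlr, the prolactin receptor, was at 17.7, 17.5 and 13.9 CPM in NT and 19.4, 18.2 and 14.3 CPM in siID4 (0.08, adjusted p = 0.761). Jak2, the receptor's kinase, differed by −0.10 on the log2 scale (adjusted p = 0.377), and Ghr, the growth hormone receptor, of 0.21 (adjusted p = 0.312, and 4.77e-05 with the block). The gene that fell was Ptpn11, which encodes the phosphatase SHP2, at 327, 327 and 333 CPM in NT and 282, 264 and 266 CPM in siID4 (−0.28, SE 0.04, adjusted p = 0.00485). The prolactin gene Prl was not tested, at 0.0 to 0.132 CPM per library.

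Inhibitors of the pathway gave no call without the block. Of 17 tested, 0 passed, where 9.55% of all genes did (3 higher and 2 lower when paired by the block, where 36.1% of all genes passed). Log2 fold changes had a median of 0.05 and a range of −0.18 to 0.18. By an unadjusted p under 0.05, 3 of them (Socs3, Socs5 and Ptpn1, named after their values were seen) passed, and DESeq2 called 0. Cish, a feedback inhibitor that STAT5 itself induces, was at 2.96, 2.56 and 2.46 CPM in NT and 2.81, 2.85 and 2.89 CPM in siID4 (0.10, adjusted p = 0.747). Socs2, another such feedback gene, went from 21.6 ± 0.601 to 24.5 ± 2.52 CPM (0.18, adjusted p = 0.227, and 0.0221 with the block).

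Among 17 tested partners and targets of STAT5, Nfix, Igf1 and Myc rose, Ccnd1 fell and 13 did not pass. The share called was 23.5%, where 9.55% of all genes tested were called, and this difference was not tested. When paired by the block, 5 were called up and 3 down, where 36.1% of all genes were called. Calls numbered 1 up and 1 down without NT replicate 2 or siID4 replicate 2. The median over the list was 0.05. Igf1, a secreted growth factor, went from 4.35 ± 0.453 to 7.75 ± 1.65 CPM (0.84, adjusted p = 0.0194). It did not pass without NT replicate 2 (0.0842), NT replicate 3 (0.0548), siID4 replicate 1 (0.0517) or siID4 replicate 2 (0.0897). Nfix, a nuclear factor I gene, rose by 0.28 on the log2 scale (0.0571 as adjusted p without siID4 replicate 2) and Myc by 0.26 (0.0740 without NT replicate 2). Ccnd1, the cyclin D1 gene, differed by −0.33 (adjusted p = 0.00657). Of the factors that act beside STAT5 on milk genes, Elf5, Nfib and the glucocorticoid receptor gene Nr3c1 did not pass without the block. Elf5 had −0.30 (adjusted p = 0.349, and 0.00333 with the block), Nfib 0.05 (0.785) and Nr3c1 0.02 (0.840).

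Other genes of secreted milk proteins moved in both directions. Of 18 listed, 17 had a row and 8 were abundant enough to test, of which Clu and B2m rose, Spp1 fell and 5 did not pass. The share called was 37.5%, where 9.55% of all genes tested were called, and this difference was not tested. When paired by the block, 3 were called up and 2 down, where 36.1% of all genes were called. The median over the list was 0.20. Spp1, which encodes osteopontin, was at 4424, 4159 and 3628 CPM in NT and 2817, 2706 and 2541 CPM in siID4, without overlap (−0.60, SE 0.07, adjusted p = 0.00227). B2m, a chain of MHC class I and of the neonatal Fc receptor, went from 351 ± 34.8 to 483 ± 26.0 CPM (0.46, adjusted p = 0.00598). Clu, which encodes the chaperone clusterin, rose by 0.44 (adjusted p = 0.0417), passed without NT replicate 1, and did not pass without any one of the other 5 libraries, with adjusted p from 0.0669 to 0.127. The whey gene Wfdc18 was at 51.2 to 70.9 CPM in NT and 54.8 to 69.2 CPM in siID4 (−0.01, adjusted p = 0.974). It was chosen after its values were seen, as was Muc15, a mucin of the milk fat globule. Muc15 was at 9.49, 8.15 and 6.07 CPM in NT and 13.8, 14.9 and 9.16 CPM in siID4 (0.68, adjusted p = 0.0847). Its adjusted p was 8.07e-07 with the block, 0.02 by DESeq2 and 0.0201 by edgeR without siID4 replicate 3.

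Genes of milk fat and lactose supply were counted list by list. Of 17 tested genes of fat droplet formation and docking, 0 rose and 4 fell, namely Acsl4, Fabp5, Lpin1 and Cd9 (3 up and 6 down when paired by the block, and 2 down without siID4 replicate 2). Fabp3 was called higher with library totals (adjusted p = 0.0481) and without NT replicate 1 (0.0426). Acsl1 was called lower by DESeq2 (adjusted p = 0.042) and by edgeR without siID4 replicate 1 (0.0391). Both were named after their values were seen. Of all genes tested 9.55% were called (36.1% with the block), and the median over the list was −0.09. Acsl4, which activates long-chain fatty acids, was at 333, 322 and 321 CPM in NT and 217, 218 and 208 CPM in siID4 (−0.60, SE 0.04, adjusted p = 1.54e-04). Fabp5, a fatty acid carrier, had a log2 fold change of −0.26, and Cd9, a tetraspanin, of −0.24. The phosphatidate phosphatase gene Lpin1 had −0.56. Lpin1 did not pass without siID4 replicate 2 (0.0765), nor did Cd9 (0.0958), which also failed without NT replicate 2 (0.0542) or siID4 replicate 3 (0.0560). Plin2, the coat protein of the milk fat droplet, was at 110, 115 and 116 CPM in NT and 114, 109 and 122 CPM in siID4 (0.01, adjusted p = 0.909). Of 17 tested genes of lactose synthesis and ion or water transport, Slc12a2, a sodium, potassium and chloride carrier, fell (−0.54, adjusted p = 7.83e-04) and 16 did not pass. When paired by the block, 2 were called up and 10 down, where 36.1% of all genes were called. Leaving out siID4 replicate 3, or testing genes of any count, gave 2 calls, both lower. The share called without the block was 5.88%, near the 9.55% of all genes, and the median over the list was −0.13. B4galt1, whose product joins with α-lactalbumin to make lactose, was at 120, 102 and 95.6 CPM in NT and 99.1, 86.1 and 79.5 CPM in siID4 (−0.26, adjusted p = 0.150, and 8.70e-08 with the block).

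**Figure D4:**
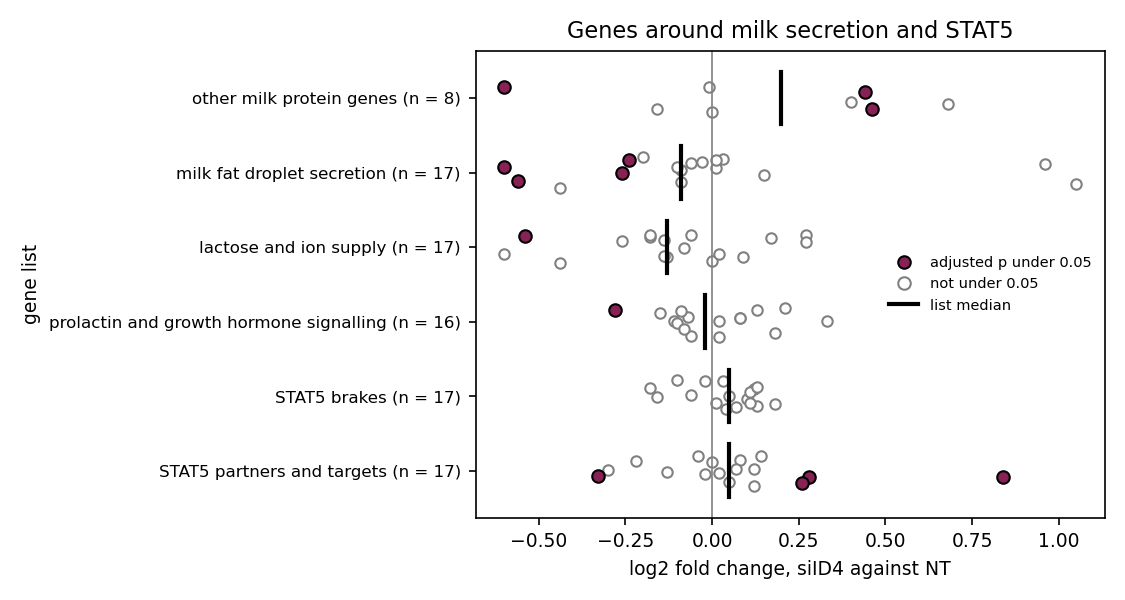
Log2 fold change of siID4 against NT (horizontal axis) for the tested genes of 6 lists around milk secretion and STAT5 (vertical axis), with filled points for called genes and a black line at each list median. The medians run from −0.13 to 0.20, and the inhibitors of the pathway hold no filled point.

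Markers of mammary lineage are given beside these values because milk genes belong to luminal cells. Of 14 tested luminal markers 3 rose and 1 fell, a share of 28.6% (median 0.09). Of 11 basal markers 4 rose and 1 fell, a share of 45.5% (median 0.14). Without the block 9.55% of all genes tested were called, and these differences in share were not tested. With the block, 5 luminal markers were called higher and 5 lower. For basal markers the block gave 5 higher and 3 lower, where it called 36.1% of all genes. The luminal list summed to 977 to 1141 CPM in NT and 924 to 1030 CPM in siID4, and the basal list to 3940 to 4670 and 3909 to 4331 CPM. Both summed ranges overlapped between the arms. Among luminal markers Cdh1, Kit and Gata3 rose and Epcam fell. Among basal markers Trp63, Acta2, Oxtr and Snai2 rose and Vim fell. All of these were named after their values were seen. Vim went from 1448 ± 179 to 1108 ± 64.4 CPM (−0.39, adjusted p = 0.0253). Basal Krt5, Krt14 and Itga6, not called, had log2 fold changes below 0, and Krt17, Cdh3 and Egfr above 0. For Acta2 (smooth muscle actin) the arms did not overlap, at 365 to 571 CPM in NT and 783 to 978 CPM in siID4 (0.90, adjusted p = 0.0195). Nor did they for Oxtr (the oxytocin receptor), at 6.47 to 9.92 and 12.6 to 21.1 CPM (1.04, adjusted p = 0.0274). Without siID4 replicate 2 the counts of both lists fell to 0. The luminal count was 2 without NT replicate 2 or siID4 replicate 1. The basal count was 1 without NT replicate 2 or siID4 replicate 1, 2 without NT replicate 3, and 3 without siID4 replicate 3 or with no filter on low counts.

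For the 2 called genes, the closest patterns over the 6 libraries were sought among the 10799 genes that averaged 5 CPM or more. Btn1a1 was most like Tead3 (Pearson r = 0.998), Enah and Coro6 (0.993 each), and Ltf was most like Bmp2k (0.989), Cyhr1 (0.987) and Uggt2 (0.986). A correlation above 0.9 was common, being reached by 460 genes for Btn1a1 and 220 for Ltf, and the 6 libraries share their arms and replicate numbers.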

How the data were processed

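The authors deposited one table of expected counts per gene for 6 RNA-seq libraries (poly(A)-selected, strand-marked, from 1 µg of RNA per the labels' protocols). Trimming, alignment and counting tools and the build (cutadapt, STAR, RSEM, mm10) are known only by name, per the submitters' processing notes. Versions, annotation release, strand setting and the table's filter: not given in the sources used here. Gene lengths, from the Length column as deposited, gave CPM per kb. Expected counts (10.0% to 10.6% not whole, tolerance 0) were rounded.

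Arms were compared by edgeR's quasi-likelihood test (version 4.0.16 in R 4.3.3, robust, TMM, filterByExpr, arm as the only term) over 13941 genes with Benjamini-Hochberg adjustment, called under 0.05. SEs were derived from the F statistic. The edgeR fit was run on simulated counts with a common dispersion and no effect of replicate number. That run checks the code and cannot show how the fit behaves on these libraries. Levels are CPM over TMM-scaled totals, mean ± SD. Coordinates are from GENCODE M21 (GRCm38, also called mm10), by gene identifier.

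The labels state no pairing of the arms by replicate number, and the main fit used none. Same-numbered libraries nonetheless deviated together from their arm means (r = 0.42, 0.14 and 0.38 across genes), which only the replicate block takes into account. Libraries of an arm differed by more than sampling noise, with 5.1 to 13.8 as chi-square per gene.

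Named genes were the 10 members, a set of pathway genes, up to 6 called genes per list and the 3 closest patterns of each called member. Members and lists were chosen with earlier results of these data known. Alternatives were DESeq2 (1.42.0) and its size factors, upper quartile scaling, library totals, 2 other filters, limma-voom (limma 3.58.1), the replicate block, leaving out each library, and, added after the data were seen, summing Stat5a and Stat5b.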

Additional observations from a re-analysis of the deposited data

How the results depend on the processing

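With the replicate block 5038 genes changed in place of 1331, and 5 of the tested genes described here in place of 2. With no filter on low counts 1 of them was called. In fits without one library the count over all genes ran from 445 to 1351 and that of the genes described here from 0 to 2, with 0 when NT replicate 2 or siID4 replicate 1 was left out. All scaling choices, DESeq2, limma-voom and the 5 CPM minimum gave 2. The signs of Ltf, Csn3, Xdh, Btn1a1 and Stat5b were kept in every alternative run. Over the fits without one library Mfge8 ran from −0.02 to 0.04 and Stat5a from −0.01 to 0.29. Mfge8 took the opposite sign without NT replicate 2 (−0.02) and without siID4 replicate 1 (−0.01), and Stat5a without NT replicate 3 (−0.01), without siID4 replicate 1 (−0.01) and when summed with Stat5b (−0.06). The cause was not tested. Depth limits Csn2 and the other caseins at or near 0. The biological replicates are as the labels describe them, and p-values measure the spread between these libraries only.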
